A study of Schizosaccharomyces pombe with 2 samples.

Results

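The Tf2 retrotransposons and the wtf genes, dispersed repeat families of the fission yeast Schizosaccharomyces pombe, are described here in RNA of a strain labelled pob3 set against RNA of a wild-type strain labelled wt. Members were the rows of the array whose name, or the current symbol of whose systematic ID, begins with tf2- or wtf and a number. The rule found 12 Tf2 rows and 24 wtf rows. Of the wtf rows 2 were marked missing on the array, which left 12 Tf2 and 22 wtf rows, and all 34 of these were among the 4765 genes measured on both arrays. The rule used names alone and no measured value.

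Tf2 elements are retrotransposons bounded by long terminal repeats. Their RNA is copied back into DNA and inserted at other places in the genome, and each copy encodes its coat and enzyme proteins in a single reading frame. In fission yeast their transcripts are known to be kept low by histone chaperones, histone deacetylases and proteins related to the centromere protein CENP-B, and to rise when oxygen or sterols are short. The wtf genes, named for their position beside Tf repeats, include meiotic drivers, genes that make a poison for all spores and an antidote for the spores that inherit them, and many copies are pseudogenes. Pob3 is a subunit of FACT, the histone chaperone that handles nucleosomes ahead of and behind the transcribing polymerase. The series concerns FACT and centromeric heterochromatin, and repeats of these families are among the transcripts its arrays can report on.

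Both RNAs were hybridised together to each of 2 spotted arrays of open reading frames. On replicate 1 the pob3 RNA carried Cy5 and the wild-type RNA Cy3, and replicate 2 had the opposite dyes. Duplicate spots of a gene stand in separate files, 2 per array. The labels give neither the pob3 allele, the strain backgrounds nor the growth conditions, and separate cultures behind the replicates are not stated. The spread that the p-values rest on is that between the hybridisations and may be technical. Values are log2 ratios, pob3 over wild type, after background correction and loess (a curve fitted to remove dye bias that depends on brightness), given as mean ± SD (n = 2 arrays). Precision is limited by having 2 arrays.

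The transcript of the labelled gene, pob3, had log2 ratios of -1.40 on replicate 1 and -1.12 on replicate 2, a mean of -1.26 ± 0.20. Its adjusted p of 0.0617 (limma with Benjamini-Hochberg adjustment) missed the threshold of 0.05, and it passed under 7 alternatives, with adjusted p-values of 0.00147 to 0.0493. Median gene intensities per file were 4217 to 6300 for pob3 and 1977.5 to 5364 for wild type, with median backgrounds of 8.5 to 599 and 16 to 547. All 48 Tf2 spots lay above background in both channels, as did 84 of the 88 wtf spots, and 0 spots of either family were saturated. The 8 spots of the missing rows wtf4 and wtf10 lay at background, with 0 above it in either dye. The shortfall on wtf spots came from wtf1-psuedo (2 of 4 spots above background in both channels), wtf11 (3 of 4) and wtf7-pseudo (3 of 4).

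The array's names date from its design and do not fix which copy a probe marks. The reference annotation (assembly ASM294v3) holds 13 Tf2 loci and 25 wtf loci, of which 23 wtf loci lie on chromosome III, and it calls 9 wtf loci pseudogenes. The array numbers its 10 wtf pseudogene rows apart from the other 12, so that wtf2 and wtf2-pseudo are separate rows, while the current numbering runs through both kinds. The wtf rows are therefore called by their array names without a locus. Near-identical copies share sequence, so a Tf2 probe can report many copies at once and the rows of a family are not independent measurements. Fewer or more copies in the genome and less or more RNA per copy cannot be told apart. Probe sequences were not analysed here.

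None of the 34 rows passed the test of a difference between pob3 and wild type across all genes, which does not show that their levels were equal. Of the Tf2 rows 0 of 12 and of the wtf rows 0 of 22 passed an adjusted p of 0.05 in limma, where 0.525% of the 4765 genes did (0.441% higher and 0.0839% lower in pob3). At an unadjusted p of 0.05 there were also 0 in both families, against 7.41% of all genes. By the submitters' 2-fold threshold, applied on both arrays without a test, 0 rows of either family differed, against 0.986% of all genes. Even on a single array 0 rows lay past 2-fold, against 6.11% of all genes on at least 1 array. The adjusted p-values ran from 0.755 to 0.983 for Tf2 and from 0.715 to 0.992 for wtf (limma, Benjamini-Hochberg).

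The 95% intervals of the mean, which use limma's spread pooled over genes, show what sizes of change these arrays leave possible. For all 12 Tf2 and all 22 wtf rows the upper bound lay under a log2 ratio of 1, which is 2-fold higher in pob3. The same held for 4209 of all 4765 genes. The interval lay within 2-fold in both directions for 11 Tf2 rows and 19 wtf rows, or 91.7% and 86.4%, against 80.9% of all genes. The exceptions reached below -1, at -1.02 for Tf2-11, -1.06 for wtf12, -1.05 for wtf5 and -1.08 for wtf4-pseudo.

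**Figure D1:**
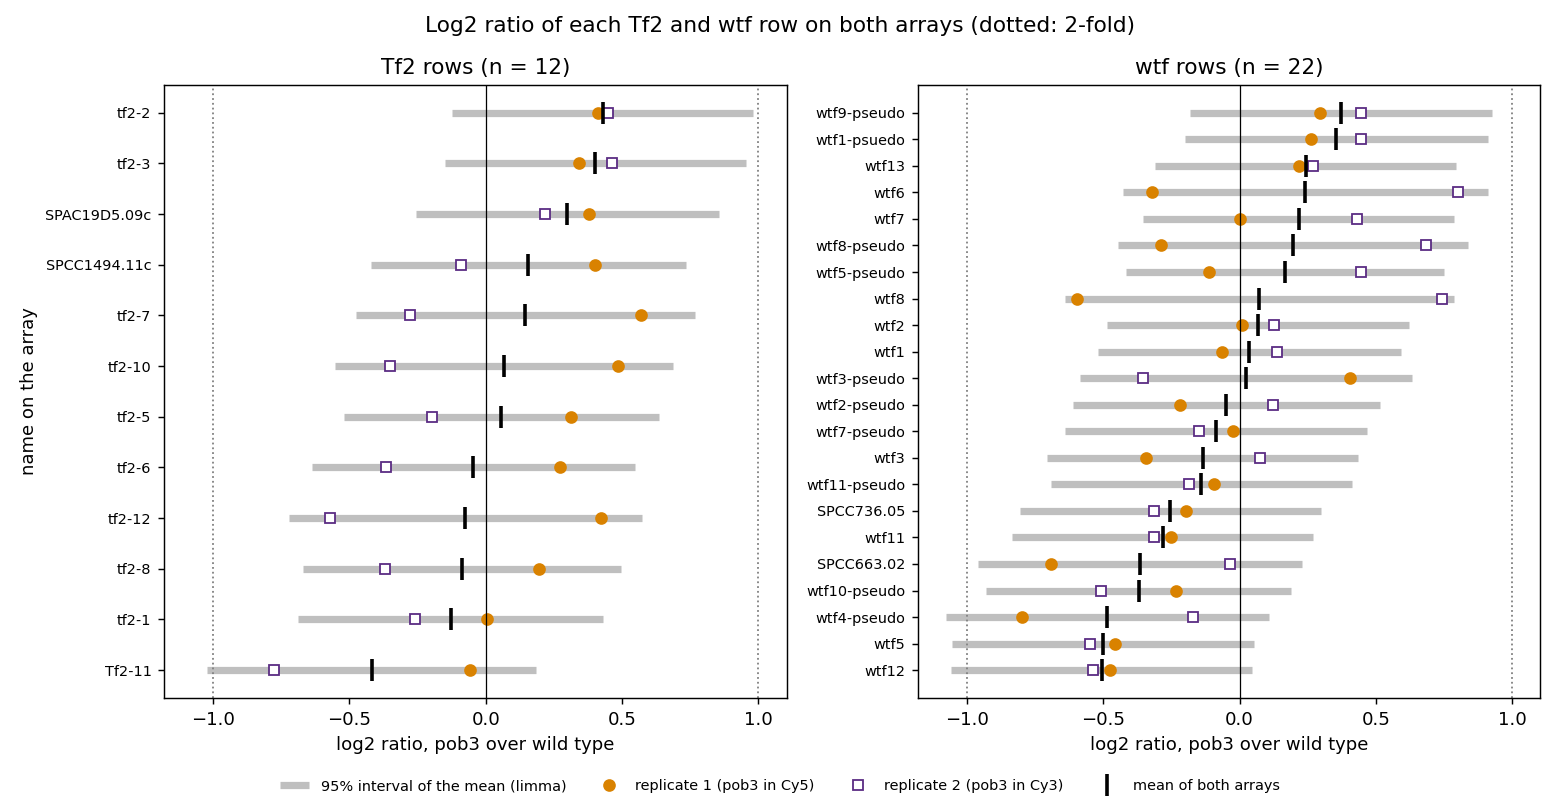
Log2 ratio of pob3 over wild type (horizontal axis) for each Tf2 row (left) and wtf row (right), by its name on the array and ordered by mean. Filled circles are replicate 1, open squares replicate 2, black ticks the mean and grey bars the 95% interval of the mean from limma; all means lie between -0.51 and 0.43, and most Tf2 rows have the circle right of 0 and the square left of it.

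The Tf2 rows did not keep 1 direction across the dye swap. Their median log2 ratio was 0.36 on replicate 1 and -0.27 on replicate 2, with a mean of these medians of 0.05 ± 0.45, beside medians over all genes of -0.001 and 0.01. An exact sign-flip permutation test over 2 arrays cannot give a two-sided p below 0.5, so none is given for the family. On replicate 1 the rows ran from -0.06 to 0.57 and 11 of 12 lay above 0, against 2379 of all 4765 genes. On replicate 2 the Tf2 rows ran from -0.78 to 0.46 and 3 of 12 lay above 0, against 2437 of all genes. Thus 8 of 12 lay above 0 on replicate 1 and below 0 on replicate 2, a pattern shown by 23.1% of all genes, and 0 of 12 showed the opposite one, shown by 24.3%. In these 8 rows the Cy5 signal was the relatively stronger one on both arrays, whichever RNA carried it. The part of the dye in this pattern was not tested.

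The rows tf2-2, tf2-3 and SPAC19D5.09c lay above 0 on both arrays, 3 of 12 against 26.8% of all genes. For tf2-2 the background-corrected intensities before loess were 18694 for pob3 and 5104 for wild type on replicate 1, and 13819 and 11418 on replicate 2. The Cy5 channel was the brighter one over most spots of replicate 1. After loess the log2 ratios were 0.41 and 0.45, with a mean of 0.43 ± 0.03 (1.35-fold, adjusted p = 0.755, limma). This was the highest Tf2 mean, and 90.0% of all genes lay below it. The row tf2-3 had intensities of 18488 for pob3 and 5320 for wild type on replicate 1, and 14101 and 11555 on replicate 2. Its log2 ratios were 0.34 and 0.46, with a mean of 0.40 ± 0.08 (adjusted p = 0.777, limma). SPAC19D5.09c, a systematic ID whose current symbol is Tf2-8, had 0.38 and 0.22, a mean of 0.30 ± 0.11. In all 3 rows the arrays differed by less than the distance of their mean from 0, yet the moderated intervals included 0.

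At the other end stood Tf2-11, the lowest of the family and the single row below 0 on both arrays (1 of 12, against 25.8% of all genes). It had intensities of 5898 for pob3 and 2098 for wild type on replicate 1, and 5143 and 9973 on replicate 2. Its log2 ratios were -0.06 and -0.78, with a mean of -0.42 ± 0.51 (adjusted p = 0.787, limma), so the value rests on replicate 2. The duplicate spots of Tf2-11 on replicate 1 had opposite signs, at -0.27 and 0.15. The row tf2-1 was at 0.004 on replicate 1 and -0.26 on replicate 2, a mean of -0.13 ± 0.19. Its duplicate spots on replicate 1 stood at 0.13 and -0.12.

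Like tf2-1, the remaining 7 rows lay above 0 on replicate 1 and below 0 on replicate 2. The widest gap between arrays was that of tf2-12, with 0.42 on replicate 1 and -0.57 on replicate 2 and a mean of -0.07 ± 0.70. Next came tf2-7 (0.57 and -0.28, mean 0.15 ± 0.60) and tf2-10 (0.48 and -0.35, mean 0.07 ± 0.59). In tf2-6 (0.27 and -0.36), tf2-8 (0.19 and -0.37), tf2-5 (0.31 and -0.20) and SPCC1494.11c (0.40 and -0.09), the last currently named Tf2-13, the gap was smaller but of the same kind. The duplicate spots of tf2-5 on replicate 2 had opposite signs, at -0.49 and 0.09. The means of these 7 rows lay between -0.09 and 0.16.

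**Figure D2:**
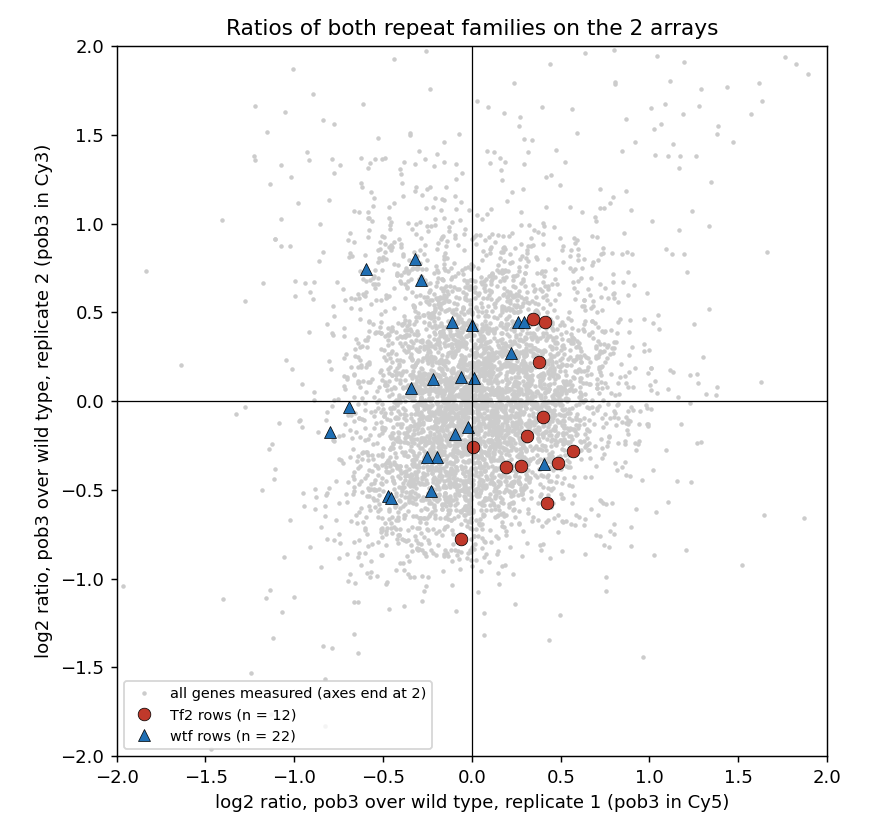
Log2 ratio of pob3 over wild type on replicate 1 (horizontal) against replicate 2 (vertical), with Tf2 rows as red circles, wtf rows as blue triangles and all genes within the axes in grey. Of the Tf2 rows 8 of 12 lie at the lower right, above 0 on replicate 1 and below 0 on replicate 2, as do 1 of the 22 wtf rows and 23.1% of all genes.

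The rows tf2-8 and SPAC19D5.09c would both mark the current locus Tf2-8 if the array's number is the current one, which its names do not settle. The log2 ratio of tf2-8 minus that of SPAC19D5.09c was -0.18 on replicate 1 and -0.59 on replicate 2. On the same condition, the rows wtf7 and SPCC736.05 would both mark the current locus wtf7. The log2 ratio of wtf7 minus that of SPCC736.05 was 0.20 on replicate 1 and 0.74 on replicate 2. On replicate 1 wtf7 lay at 0.003 and SPCC736.05 at -0.20, and on replicate 2 they lay at 0.43 and -0.31. By comparison the duplicate spots of a Tf2 row differed by a median of 0.16 on replicate 1 and 0.09 on replicate 2, and those of a wtf row by 0.20 and 0.21, against 0.17 and 0.15 for all genes. The gap between tf2-8 and SPAC19D5.09c thus exceeded the median gap between duplicate spots of a Tf2 row on both arrays, narrowly on replicate 1. That between wtf7 and SPCC736.05 exceeded the median of wtf rows on replicate 2 alone. On replicate 1 the duplicate spots of wtf7 itself stood at 0.42 and -0.41. Some single rows had wide gaps between their duplicate spots on replicate 2 too, up to 0.57 for Tf2 and 0.95 for wtf.

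The wtf rows spread to both sides of 0. Their median log2 ratio was -0.21 on replicate 1 and 0.10 on replicate 2, with a mean of these medians of -0.05 ± 0.22. By mean 11 of 22 lay above 0 and 11 below. Below 0 on both arrays lay 9 of 22, or 40.9% against 25.8% of all genes, and above 0 on both lay 5 of 22, or 22.7% against 26.8%. Below 0 on replicate 1 and above 0 on replicate 2 lay 7 of 22, or 31.8% against 24.3% of all genes. The reverse was shown by 1 of 22, or 4.55% against 23.1%. The SD across members of the means was 0.28 for wtf and 0.24 for Tf2, against 0.36 over all genes. The SD over all genes includes outlying means up to 4.11, and rows of a family share sequence, so these SDs do not compare like sets.

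The lowest wtf rows were wtf12, wtf5 and wtf4-pseudo. For wtf12 the background-corrected intensities before loess were 3627 for pob3 and 1692 for wild type on replicate 1, and 2601 and 4509 on replicate 2. Its log2 ratios of -0.47 and -0.54 gave a mean of -0.51 ± 0.04 (0.704-fold, adjusted p = 0.715, limma), and 4.64% of all genes lay below it. The duplicate spots of wtf12 on replicate 1 differed, at -0.20 and -0.75. The row wtf5 had intensities of 8404 for pob3 and 4086 for wild type on replicate 1, and 4715 and 7834 on replicate 2. Its log2 ratios were -0.46 and -0.55, with a mean of -0.50 ± 0.06 (adjusted p = 0.718, limma). By their array values both rows were lower in pob3 by nearly the same amount on each array. With print-tip loess their means were nearer 0, at -0.30 for wtf12 and -0.28 for wtf5. In wtf4-pseudo the arrays differed, with -0.80 and -0.17 and a mean of -0.48 ± 0.44 (adjusted p = 0.755, limma).

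Another 6 rows lay below 0 on both arrays. They were wtf10-pseudo (mean -0.37 ± 0.19), SPCC663.02, now named wtf14 (-0.36 ± 0.46), and wtf11 (-0.28 ± 0.04). The others were SPCC736.05 (-0.25 ± 0.08), wtf11-pseudo (-0.14 ± 0.06) and wtf7-pseudo (-0.09 ± 0.09). The current name of SPCC736.05 is wtf7, though the array holds a separate row named wtf7. The row wtf11 was among the dimmest, with 334 for pob3 and 877 for wild type on replicate 2, and on replicate 1 it rested on a single spot above background.

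Above 0 on both arrays lay wtf9-pseudo, wtf1-psuedo, wtf13, wtf7 and wtf2. The highest was wtf9-pseudo, with intensities of 5851 for pob3 and 1615 for wild type on replicate 1 and 4482 and 3846 on replicate 2. Its log2 ratios were 0.30 and 0.45, with a mean of 0.37 ± 0.11 (1.29-fold, adjusted p = 0.797, limma). The row wtf1-psuedo had 0.26 and 0.45 (mean 0.35 ± 0.13), but its duplicate spots on replicate 2 stood at -0.03 and 0.92. For wtf13 the arrays gave 0.22 and 0.27, a mean of 0.24 ± 0.03. The row wtf7 (0.003 and 0.43, mean 0.22 ± 0.30) averaged near 0 on replicate 1, from duplicate spots at 0.42 and -0.41. The row wtf2 (0.01 and 0.13, mean 0.07 ± 0.08) lay near 0 on both arrays. Its duplicate spots on replicate 1 stood at -0.25 and 0.27.

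The widest disagreement between arrays was in wtf8, wtf6 and wtf8-pseudo, all lower in pob3 on replicate 1 and higher on replicate 2. For wtf8 the intensities were 5702 for pob3 and 2972 for wild type on replicate 1, and 5567 and 3852 on replicate 2. Its log2 ratios were -0.60 and 0.74, a mean of 0.07 ± 0.95, and its duplicate spots kept the sign of their array, at -0.73 and -0.46 on replicate 1 and 0.79 and 0.69 on replicate 2. The row wtf6 had -0.32 and 0.80 (mean 0.24 ± 0.79), and wtf8-pseudo had -0.29 and 0.68 (mean 0.20 ± 0.69). These are ratios in which the Cy3 signal was the relatively stronger one on both arrays, the reverse of most Tf2 rows. The part of the dye in them was not tested.

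Smaller values of the same split were those of wtf5-pseudo (-0.11 and 0.44, mean 0.17 ± 0.39), wtf3 (-0.35 and 0.07, mean -0.14 ± 0.30), wtf2-pseudo (-0.22 and 0.12, mean -0.05 ± 0.24) and wtf1 (-0.06 and 0.14, mean 0.04 ± 0.14). The single wtf row that followed the Tf2 pattern was wtf3-pseudo, with 0.41 and -0.36 and a mean of 0.03 ± 0.54. The rows that the array marks as pseudogenes had per-array medians of -0.10 and -0.01 (n = 10), and the others -0.29 and 0.10 (n = 12). Their means spanned -0.48 to 0.37 and -0.51 to 0.24, so the ranges overlapped over most of their width.

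**Figure D3:**
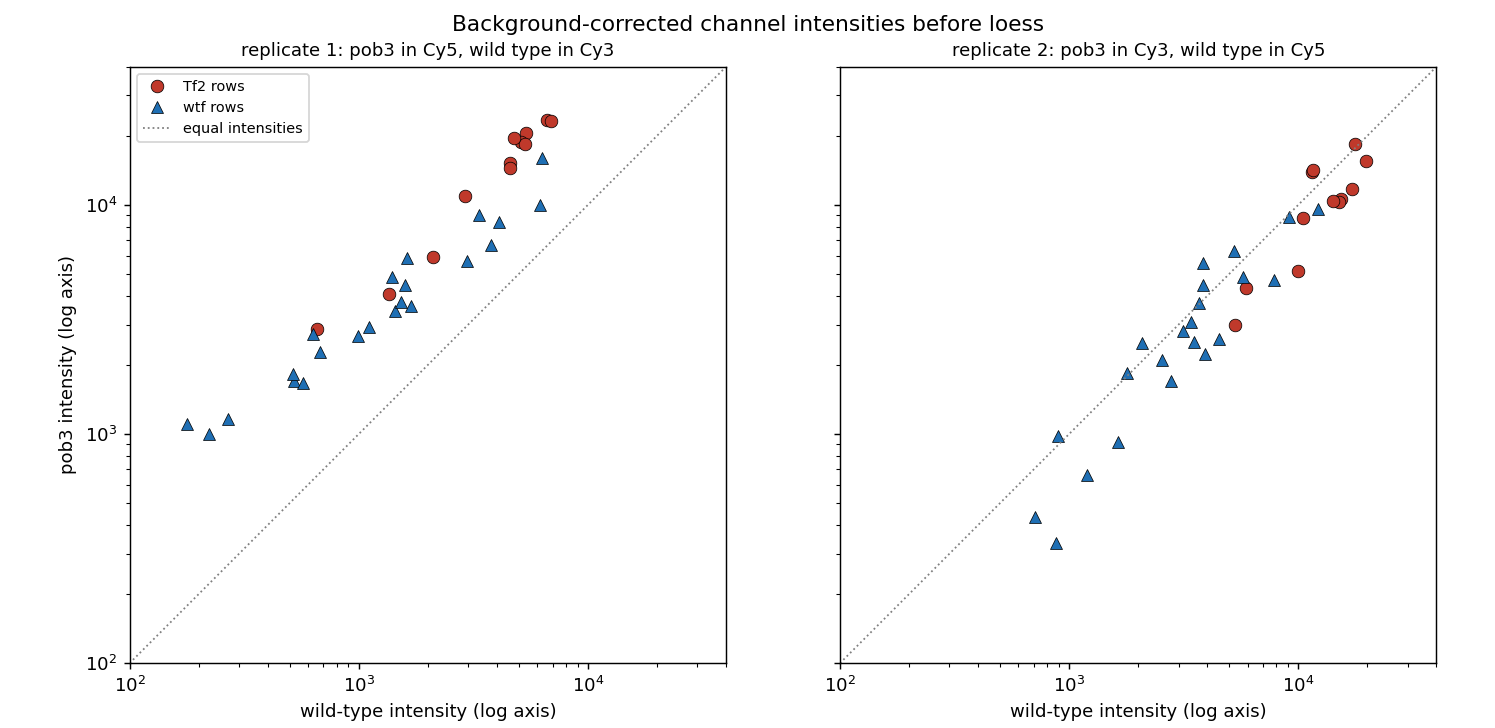
Background-corrected intensity of pob3 (vertical) against wild type (horizontal), both on log axes and before loess, for replicate 1 (left) and replicate 2 (right); the dotted line marks equal intensities. All rows lie above the line on replicate 1, where pob3 carried Cy5, and most lie below it on replicate 2, where wild type did, with Tf2 rows (red circles) reaching 23323 and wtf rows (blue triangles) 16041 for pob3 on replicate 1.

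The Tf2 rows were bright spots. Their median background-corrected intensity was 16850 for pob3 and 4668 for wild type on replicate 1, and 10487 and 12870 on replicate 2. For wtf rows the medians were 3525 for pob3 and 1416 for wild type on replicate 1, and 2566 and 3448 on replicate 2. Spots differ in probe length and DNA, so these brightnesses give no order of transcript levels between rows or families. With each file centred on its median instead, the Tf2 medians were 0.26 and -0.21 and those of wtf -0.09 and -0.003, so 8 of 12 Tf2 rows again lay above 0 on replicate 1 and below 0 on replicate 2. With loess within each print block (print-tip loess) that number was 9 of 12, and without background correction or with the second spots alone it was 7 of 12. Of all genes 26.5% had this pattern with median centring, 25.0% with print-tip loess, 22.2% without background correction and 23.1% with the second spots. Of the wtf rows 5 of 22 had this pattern with median centring and 1 of 22 with print-tip loess.

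The genes beside the repeats were set next to them. The nearest protein-coding gene outside both families was taken on each side of every annotated Tf2 and wtf locus, which gave 64 genes, 60 of them measured. None passed the test in limma (0 of 60, against 0.525% of all genes), and 4 had an unadjusted p under 0.05, against 7.41% of all genes. The 22 measured neighbours of Tf2 loci had a median of their means of -0.10, with per-array medians of -0.19 and -0.11, beside 0.02 over all genes. Below 0 on both arrays lay 9 of these 22 neighbours, against 25.8% of all genes, and above 0 on both lay 2 of 22, against 26.8%. The 38 neighbours of wtf loci had a median of 0.03, a mean of -0.01 and per-array medians of -0.10 and 0.004. Of these 38, 9 lay below 0 on both arrays, against 25.8% of all genes, and 7 lay above 0 on both, against 26.8%.

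The neighbours with the smallest p were SPCC162.03, beside the current locus wtf13, with -0.94 and -0.59 and a mean of -0.77 ± 0.25 (adjusted p = 0.459, limma), and brl2, beside wtf9, with -0.65 and -0.68 and a mean of -0.66 ± 0.03 (adjusted p = 0.552). The gene brl2 encodes a ubiquitin ligase for histone H2B. The third was pib2, beside Tf2-9, with 0.41 and 0.99 and a mean of 0.70 ± 0.41 (adjusted p = 0.559). The first pair was lower in pob3 and the third higher, on both arrays in each case, and all missed the threshold.

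Factors known to act on Tf2 transcripts were taken as a list of 16, of which 15 were measured. Of these 0 rose, 0 fell and 15 did not pass the test in limma (0.525% of all genes passed), with 1 of 15 at an unadjusted p under 0.05, against 7.41% of all genes. The median of their means was -0.0004 and their mean -0.10, with per-array medians of -0.11 and -0.10. The smallest p was that of scp1, which encodes the sterol-sensing partner of the transcription factor Sre1, with -0.51 and -0.76 and a mean of -0.64 ± 0.18 (adjusted p = 0.606). Its probe was dim: 2 of its 4 spots were kept, 1 on each array, and 1 of 4 lay above background in both channels. With the submitters' values for replicate 2 its mean was -1.22 and its adjusted p 0.00871. Next were hip1, of the HIRA histone chaperone (-0.27 and -0.77, mean -0.52 ± 0.35), the histone chaperone gene asf1 (-0.53 and -0.24, mean -0.38 ± 0.21) and cbh2, of the CENP-B family (-0.07 and -0.75, mean -0.41 ± 0.48). Below 0 on both arrays lay 7 of the 15, against 25.8% of all genes.

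Genes of the low-oxygen sterol response, which shares the activator Sre1 with Tf2, were read in the same way. Of 12 listed, 10 were measured and 0 passed the test, with 2 of 10 at an unadjusted p under 0.05, against 7.41% of all genes. The median of their means was 0.21, whereas the per-array medians were -0.02 and -0.05. The highest was erg32, a C-5 sterol desaturase gene, with 1.33 and 0.99 and a mean of 1.16 ± 0.24 (adjusted p = 0.0957, limma). Under 4 alternatives it passed, with adjusted p-values between 0.0142 and 0.0495, so its call depends on the processing. The next were scp1, given above, erg25 (0.89 and -0.04, mean 0.43 ± 0.66) and hmg1, of HMG-CoA reductase (-0.22 and -0.45, mean -0.34 ± 0.17).

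Meiotic regulators and markers of meiotic cells were read beside wtf, whose transcripts are known from meiosis. Of 18 listed, 17 were measured and 0 passed the test, with 2 of 17 at an unadjusted p under 0.05, against 7.41% of all genes. The median of their means was 0.19, with per-array medians of -0.02 and 0.22. The highest was spo5, a sporulation gene, with 0.64 and 1.96 and a mean of 1.30 ± 0.93 (adjusted p = 0.161, limma). It passed with print-tip loess (adjusted p = 0.0267) and with the first spots alone (0.0324). After it came spo6 (0.62 and 0.54, mean 0.58 ± 0.06), rec12, of the enzyme that makes meiotic DNA breaks (-0.17 and -0.76, mean -0.46 ± 0.42), and mmi1, which directs meiotic transcripts to destruction (-0.26 and 1.36, mean 0.55 ± 1.15). The relation of these values to those of the wtf rows was not tested.

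**Figure D4:**
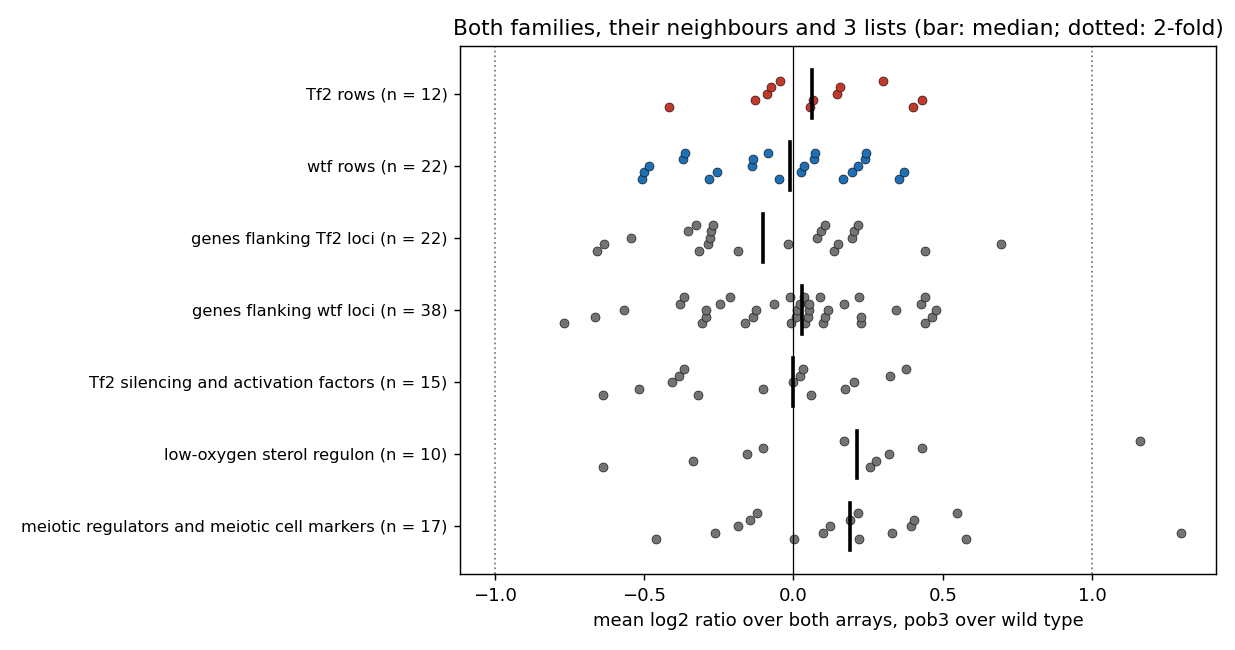
Mean log2 ratio of pob3 over wild type over both arrays (horizontal axis) for Tf2 rows, wtf rows, their neighbouring genes and 3 lists, 1 point per gene, with a bar at the median and dotted lines at 2-fold. All points of both families and their neighbours lie within 2-fold, and the points beyond it are erg32 at 1.16 and spo5 at 1.30.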

How the data were processed

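The deposited scanner files give intensities, per the file headers the median brightness of each spot and its background in each channel (5760 spots in 32 blocks). Headers name each channel's RNA, and the labels its dye. According to the design text the authors applied Lowess in GeneSpring and a threshold of 2.0. The deposited value table holds log2 ratios. Those of replicate 2 ran as pob3 over wild type, by an r of 0.927 across 6355 gene spots against the ratios used here. In the column of replicate 1 that matching put 0 values on gene spots, and its scale, centring and direction remain unknown. Column medians were -0.12 and -0.04.

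Background was corrected by normexp (offset 50) and limma 3.58.1 (R 4.3.3) fitted loess to each file, giving control spots a weight of 0. A spot was kept with flag 0 and a signal over 2 background SDs in Cy3 or 1.5 times the background in Cy5. The headers do not name the channel of the background SD. It was taken to be Cy3, and the Cy5 limit was set with the files known. Control, intergenic, intronic and reporter probes and 154 names marked missing were left out. Spots were averaged to 1 value per array, and the mean over arrays was tested against 0 by lmFit and eBayes (prior degrees of freedom 9.67, prior SD 0.37), with Benjamini-Hochberg adjustment over 4765 genes. The test was checked on simulated data.

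Named were all measured members, pob3, up to 4 genes of each list and 3 flanking genes by smallest p. The members and lists were chosen with earlier results of these data known. The reference table (assembly ASM294v3) served for names and neighbours only. In the list of Tf2 factors cbp1 was not measured, erg5 and mei4 were not measured in the other lists, and erg3 and erg31 resolve to 1 row.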

Additional observations from a re-analysis of the deposited data

Results flagged for a closer look

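A pair of rows outside the members carried signal above background, where 1.94% of empty and buffer spots did so in Cy3 and 6.26% in Cy5. SPBC1E8.04c differs from the systematic ID of Tf2-10 in its strand letter alone, so the naming rule did not take it. All 4 of its spots lay above background in both channels. Its log2 ratios of pob3 over wild type were 0.67 on replicate 1 and 0.45 on replicate 2. Their mean of 0.56 ± 0.16 (n = 2 arrays, adjusted p = 0.665, limma) lay above every Tf2 member. The unadjusted p of SPBC1E8.04c was 0.0479 (limma), and its 95% interval ran from 0.006 to 1.12. No Tf2 member had an unadjusted p under 0.05 or an upper bound past 1, so these statements depend on the naming rule. The row tf2-10 had 0.48 and -0.35. The row wtf-pseudo carries no number. All 4 of its spots lay above background in both channels, with log2 ratios of 0.18 and 0.20 and a mean of 0.19 ± 0.01 (adjusted p = 0.926, limma).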

How the results depend on the processing

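The counts of 0 members past the threshold and over 2-fold stayed 0 for both families under all 11 and 12 alternatives run, and adjusted p-values of members ran from 0.511 to 0.999. The Tf2 median of 0.05 lay between -0.27 and 0.36 without either replicate and the wtf median of -0.05 between -0.21 and 0.10. For replicate 2 the submitters' table holds values of 3 Tf2 and 3 wtf members. With these the wtf median was -0.34, a move beyond its SD, and the Tf2 median -0.05. Those 3 wtf members, SPCC663.02, SPCC736.05 and wtf10-pseudo, already lay below 0 on both arrays, with means of -0.36, -0.25 and -0.37. The change of members and the change of values are therefore not separated here. No other alternative moved a family median beyond its SD. The sign of a median also changed to -0.01 for Tf2 with the first spots and to 0.06 for wtf with print-tip loess, both within its SD. At an unadjusted p of 0.05, 2 of 12 Tf2 members passed with print-tip loess (16.7%, against 6.65% of all genes) and 2 of 22 wtf members with the second spots (9.09%, against 7.66%). Over all 4765 genes the 25 past the threshold were 11 with an offset of 10, 44 without background correction and 2 with median centring. Over the same genes the number was 56 under print-tip loess, 38 with an intensity trend and 52 at 0.10. Other alternatives measured fewer genes. Where both channels had to exceed background 39 of 4702 passed, with first spots alone 49 of 4721 and with second spots alone 53 of 4728. With the submitters' values 68 of 3133 passed. The 47 over 2-fold on both arrays were 154 at 1.5-fold and 126 to 225 on 1 array. Of the Tf2 factors 1 passed with the submitters' values, against 68 of 3133 genes. Of the sterol genes 1 passed without background correction (against 44 of 4765 genes), with print-tip loess (56 of 4765) and with the second spots (53 of 4728). With the submitters' values 2 sterol genes passed (68 of 3133). Of the meiotic genes 1 passed with print-tip loess (against 56 of 4765 genes) and 1 with the first spots (49 of 4721). The pob3 ratio had adjusted p-values from 0.00147 to 0.393 over its alternatives and passed under 7. With a single array the sign follows that array in the 16 members whose arrays had opposite signs. With both arrays the sign changed in 10 members, and the cause was not tested. With print-tip loess it did so in tf2-1 (0.10), tf2-12 (0.18), tf2-5 (-0.012), tf2-6 (0.12), tf2-8 (0.090), wtf2-pseudo (0.28), wtf3 (0.088), wtf7-pseudo (0.0097) and wtf8-pseudo (-0.13). With median centring it did so in tf2-12 (0.0042) and wtf7-pseudo (0.028), with the first spots in tf2-5 (-0.065), wtf2 (-0.036) and wtf7-pseudo (0.10), and with the second spots in tf2-6 (0.058). Each ratio already pairs pob3 with wild type within an array. No paired analysis was possible because a further block by replicate number would leave no array to compare within a block. Alternatives that counted the near matches or left out 1 row of a shared locus were added after the data were seen and moved neither median beyond its SD.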
